A study of Mus musculus with 9 samples.

Results

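Transcripts of 9 genes that take up, bind, desaturate, store and export lipids were followed in dendritic cells (DCs) of mouse spleen with and without the transcription factor C/EBPβ. The genes were Cd36, Lpl, Fabp4, Fabp5, Scd1, Scd2, Plin2, Abca1 and Abcg1. They were picked by symbol with results of the same knockout-against-control comparison already known, so their own differences are given as a description and not as a test. A probe counted when it carried exactly 1 of these symbols, which gave 12 probes for 8 of the 9 genes among 22180 genes measured. Scd2 lies only on a probe that is also assigned to a microRNA gene, and no value is given for it. Where a gene had several probes the brightest stands for it, and for these 9 genes the others are given beside it.

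The cells were CD11c-positive and MHC class II-positive DCs sorted from spleens of naive mice of the C57BL/6 background. The 6 control samples are labelled C/EBPbeta+/+ and the 3 knockout samples C/EBPbeta-/-. In the knockouts a Cre recombinase under the CD11c promoter, carried by a CD11c-Cre-eGFP strain, acts on a loxP-flanked C/EBPβ gene, so the loss covers cells in which that promoter has been active and not DCs alone. The design text gives CD11c-Cre-eGFP mice as controls, and the protocols also name C57BL/6 mice without saying which control is which. Age, sex and the number of mice per sample are not given in the labels, so any p-value speaks only to the scatter among these arrays, part of which may be technical.

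Cebpb itself was lower in each knockout sample, at 5.37 to 5.60 on the log2 scale, than in every control, at 6.64 to 7.15. Array medians were 5.49 to 5.56, and any 2 arrays correlated with r of 0.987 to 0.996 across probes. The DC markers were bright in all 9 samples, with H2-Ab1 at 13.6 to 13.7, Itgax at 12.0 to 12.3 and Flt3 at 11.4 to 11.6. Of 10 measured DC markers, 3 had a higher mean in the knockout and the rest a lower one (median log2 difference -0.08). Control replicates 1 to 3 stood apart from control replicates 4 to 6 in 3587 of 22180 genes (16.2%), in the sense that the values of these sets did not overlap. Sets of 3 samples also separate by chance in some genes, and that share was not estimated. The labels do not say what the replicate numbers stand for, so the difference of each member is also given against each set of controls. For a pathway gene it is given where a set moves it by over 1.5 times.

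Fatty acids enter myeloid cells through scavenger receptors such as CD36 or after lipoprotein lipase frees them from triglyceride, and small cytosolic binding proteins carry them to membranes, droplets or the nucleus. Stearoyl-CoA desaturases make monounsaturated fatty acids, perilipins coat the droplets in which neutral lipid is kept, and the transporters ABCA1 and ABCG1 pass cholesterol to lipoproteins outside the cell. Many of these genes are known targets of the lipid-sensing nuclear receptors PPAR and LXR, which bind DNA as pairs with RXR. In DCs and macrophages lipid load and efflux are known to bear on antigen presentation and inflammatory signalling.

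Promoter sequence was taken from RefSeq (GRCm38.p6) for the 3 of 8 measured members that matched, and is shown because the members are described below as PPAR or LXR targets. Entries for Fabp4, Fabp5, Scd1, Lpl and Abcg1 were not matched. Each line gives the 250 bases before 1 listed start of the gene, 5′ to 3′ on the gene's strand. Only the first entry of each gene was used, so any other start it has is not shown. Capitals mark every match, on either strand, to 1 of 6 motifs listed after the sequences.
Abca1, chr4:53159896-53160145, minus strand: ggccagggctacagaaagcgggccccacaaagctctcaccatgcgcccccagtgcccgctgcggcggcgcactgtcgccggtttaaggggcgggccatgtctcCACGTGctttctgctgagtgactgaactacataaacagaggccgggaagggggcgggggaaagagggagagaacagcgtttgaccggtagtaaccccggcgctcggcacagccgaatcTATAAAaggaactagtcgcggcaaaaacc
Plin2, chr4:86670060-86670309, minus strand: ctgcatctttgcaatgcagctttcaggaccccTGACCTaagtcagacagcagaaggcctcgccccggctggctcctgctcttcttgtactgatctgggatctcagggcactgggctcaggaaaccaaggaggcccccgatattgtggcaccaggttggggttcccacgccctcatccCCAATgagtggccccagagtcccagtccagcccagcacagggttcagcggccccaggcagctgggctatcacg
Cd36, chr5:17835897-17836146, minus strand: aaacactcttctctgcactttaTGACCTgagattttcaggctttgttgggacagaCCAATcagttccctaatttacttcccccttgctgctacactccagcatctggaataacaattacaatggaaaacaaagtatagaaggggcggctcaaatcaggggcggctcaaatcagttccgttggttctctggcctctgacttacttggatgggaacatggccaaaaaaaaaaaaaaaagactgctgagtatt

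The 6 motifs searched were the AGGTCA hexamer bound by nuclear receptors, the C/EBP core TTGCNNAA, the E-box CACGTG, the sterol regulatory element TCACNCCAC, the CCAAT box CCAAT and the TATA box TATAAA. Only these letters were searched, so pairs of hexamers and sites with other letters were not looked for. A window without capitals may hold such a site, and a match does not show that a receptor binds. No 2 matches overlapped. Abca1 held an E-box from 147 to 142 bases before the start, a motif present in 6.02% of the 32851 promoter entries of this length, and a TATA box from 29 to 24 bases before it, present in 12.4%. Plin2 and Cd36 each held 1 AGGTCA hexamer in reverse orientation, from 218 to 213 and from 228 to 223 bases before the start, against 14.0% of entries. They also each held a CCAAT box, as did 33.8% of entries. The C/EBP core was in 9.56% of entries and the sterol regulatory element in 1.05%, and these letters were in none of the 3 windows.

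Over the 8 measured members, 7 had a higher mean in the knockout and 1, Cd36, a lower mean. The largest differences were those of Scd1, Abca1 and Fabp4, and in these 3 genes each knockout value lay above every control. Across all genes 2.52% lay above every control in this way, and 7.39% lay outside the control range on either side. Scd1 and Fabp4 were also the 2 members past 0.05 in the fit over all genes (limma with Benjamini-Hochberg adjustment), beside 0.906% of all genes (0.415% higher and 0.491% lower), and nothing is read from either count because the members were picked from this comparison. The median difference of the 8 was 0.21 on the log2 scale, against -0.014 over all genes. Both calls were lost in most of the 9 fits that left out 1 sample. Scd1 stayed past 0.05 only without control replicate 6 and Fabp4 only without knockout replicate 3. In bulk RNA a change in the number of cells of a type and a change in RNA per cell cannot be told apart, which holds for every value below.

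**Figure D1:**
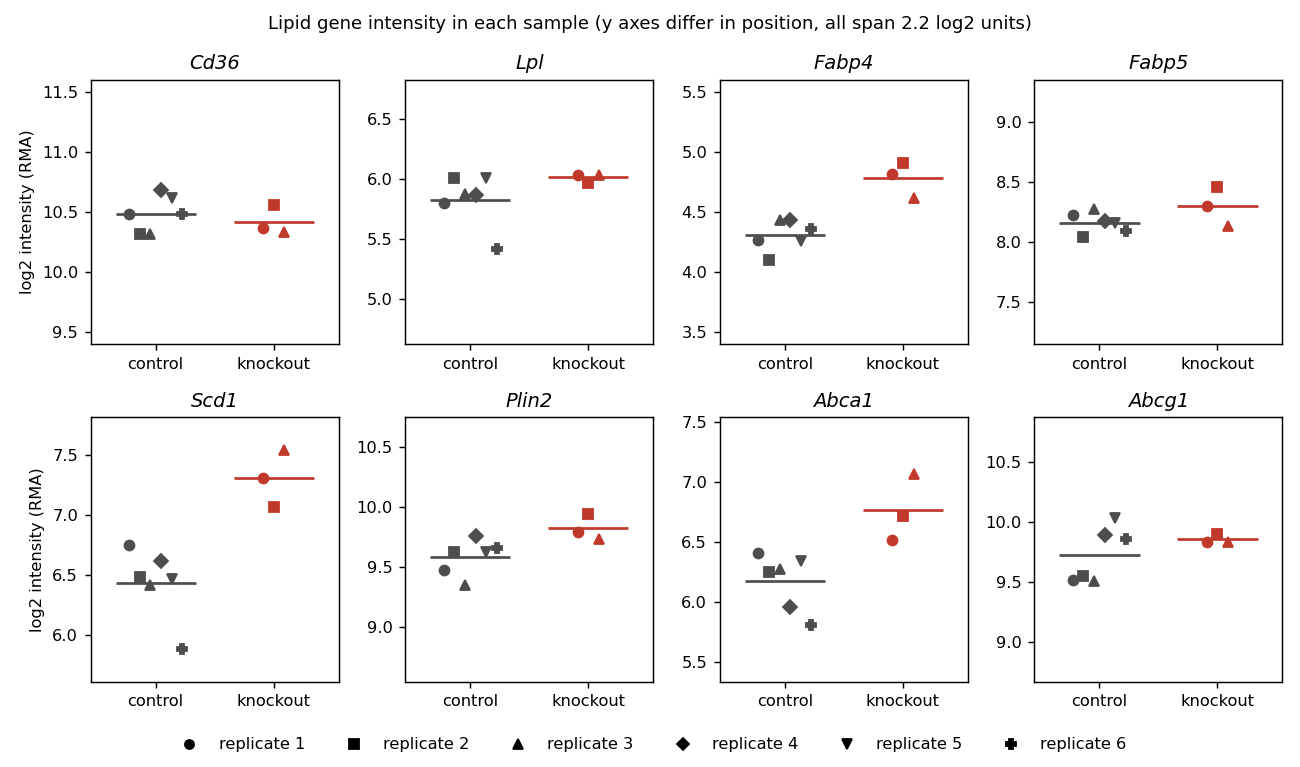
Log2 intensity of the 8 measured lipid genes in each of 6 control (grey) and 3 knockout (red) samples, with the group mean as a bar and the replicate number as the symbol. The knockout points lie above every control in Fabp4, Scd1 and Abca1 and overlap the controls in the other 5 genes.

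Among the uptake genes, Cd36 and Lpl overlapped between the groups. Cd36, the scavenger receptor for long-chain fatty acids and oxidized lipoproteins, had log2 intensities from 10.3 to 10.7 in the controls (median 10.5) and of 10.4, 10.6 and 10.3 in knockout replicates 1 to 3. All 3 knockouts lay within the control range. The mean was 10.49 ± 0.15 (SD, n = 6) in controls and 10.42 ± 0.12 (SD, n = 3) in knockouts, a log2 difference of -0.06 (SE 0.09, 95% confidence interval -0.27 to 0.14). It was 0.05 against controls 1 to 3 and -0.18 against controls 4 to 6, so its sign depended on the controls. Leaving out 1 sample gave -0.13 (without knockout replicate 2) to -0.02 (without knockout replicate 3).

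Lpl, the lipase that releases fatty acids from circulating triglyceride, had a lowest control of 5.42, a median of 5.87 and a highest of 6.01, and knockouts of 6.04, 5.97 and 6.04. The knockouts sat at the top of the control range and control replicate 6 sat well below the other controls. The log2 difference was 0.19 (SE 0.12, 95% confidence interval -0.07 to 0.44), and without control replicate 6 it was 0.10. Against controls 1 to 3 it was 0.12 and against controls 4 to 6 it was 0.25. A second, dimmer Lpl probe differed by -0.06 (SE 0.07), with controls at 3.27 to 3.61 and knockouts at 3.30 to 3.37.

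The fatty acid binding proteins Fabp4 and Fabp5 lie close together in the genome, with Pmp2 and Fabp9 between them in the RefSeq gene order and Fabp12 on the far side of Fabp4. Fabp4, the adipocyte and macrophage form and a classical PPARγ target, had control values from 4.10 to 4.44 (median 4.32) and knockout values of 4.82, 4.91 and 4.62. The lowest knockout, replicate 3, was above the highest control. The mean was 4.31 ± 0.13 (SD, n = 6) in controls and 4.78 ± 0.15 (SD, n = 3) in knockouts, a log2 difference of 0.47 (SE 0.09, 95% confidence interval 0.28 to 0.67) or 1.39-fold. It ranged from 0.41 to 0.55 over the fits that left out 1 sample, and was 0.52 against controls 1 to 3 and 0.43 against controls 4 to 6. The probe was below the array median on 9 of 9 arrays, where how much of the signal is background was not measured and where array values compress a change.

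Fabp5, the epidermal form that is also common in myeloid cells, overlapped between groups. Its brightest probe read 8.04 to 8.27 in controls (median 8.16) and 8.30, 8.46 and 8.13 in the knockouts. Knockout replicates 1 and 2 were above every control and replicate 3 was within their range. The log2 difference was 0.14 (SE 0.08, 95% confidence interval -0.04 to 0.32), and it became 0.23 without knockout replicate 3 and 0.06 without knockout replicate 2. Against controls 1 to 3 it was 0.12 and against controls 4 to 6 it was 0.16. Of the 3 other Fabp5 probes, 2 differed by 0.16 (SE 0.08) and 0.11 (SE 0.06) and the dimmest by -0.05 (SE 0.15). RefSeq lists a Fabp5-like pseudogene, Fabp5l2, and whether these probes also match it was not checked.

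None of the neighbouring genes of the Fabp group passed 0.05. Pmp2 differed by -0.01 (SE 0.08), Fabp9 by 0.03 (SE 0.06) and Fabp12 by 0.02 (SE 0.11). Limma's adjusted p was 0.88 or more for each. Their mean log2 intensities were 3.76, 3.52 and 4.93, below every array median (5.49 to 5.56). At such signal a difference near 0 does not show whether these genes changed.

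Scd1, the desaturase that makes oleate and palmitoleate, had the largest difference of the 8. Controls ran from 5.89 (replicate 6) to 6.75 (replicate 1) with a median of 6.48, and knockout replicates 1 to 3 read 7.31, 7.07 and 7.54. The lowest knockout exceeded the highest control, and the controls spread over most of a log2 unit. The mean was 6.44 ± 0.30 (SD, n = 6) in controls and 7.30 ± 0.24 (SD, n = 3) in knockouts, a log2 difference of 0.87 (SE 0.17, 95% confidence interval 0.50 to 1.23) or 1.82-fold. It ranged from 0.75 to 0.98 over the fits that left out 1 sample, and was 0.75 against controls 1 to 3 and 0.98 against controls 4 to 6. In the RefSeq order Scd1 lies in a row of 4 desaturase genes with Scd3, Scd2 and Scd4. Scd3 differed by -0.08 (SE 0.09, limma's adjusted p = 0.74) and Scd4 by -0.23 (SE 0.06, adjusted p = 0.10), and neither passed 0.05. Knockout values of Scd4 were 5.41, 5.36 and 5.42, below every control (5.55 to 5.73), a separation that 4.88% of all genes showed in this direction. The Scd3 and Scd4 probes, with means of 5.11 and 5.55, lay near or below the array medians (5.49 to 5.56). How much of such signal is background was not measured.

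Plin2, the perilipin that coats lipid droplets in most cells, touched the control range. Controls ran from 9.35 to 9.76 (median 9.62) and knockouts read 9.79, 9.94 and 9.73. Replicates 1 and 2 of the knockout were above all controls and replicate 3 was below the highest control. The mean was 9.58 ± 0.15 (SD, n = 6) in controls and 9.82 ± 0.11 (SD, n = 3) in knockouts, a log2 difference of 0.24 (SE 0.09, 95% confidence interval 0.04 to 0.44) or 1.18-fold. It was 0.34 against controls 1 to 3 and 0.14 against controls 4 to 6.

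The efflux transporters Abca1 and Abcg1, both known LXR targets, differed from each other in pattern. Abca1, which loads cholesterol onto lipid-poor apolipoprotein A-I, had controls from 5.81 to 6.41 (median 6.27) and knockouts of 6.52, 6.72 and 7.07. Each knockout was above every control, the nearest pair being knockout replicate 1 and control replicate 1 at 6.41. The mean was 6.17 ± 0.24 (SD, n = 6) in controls and 6.77 ± 0.28 (SD, n = 3) in knockouts, a log2 difference of 0.59 (SE 0.15, 95% confidence interval 0.26 to 0.93) or 1.51-fold. It ranged from 0.44 without knockout replicate 3 to 0.72 without knockout replicate 1, and was 0.45 against controls 1 to 3 and 0.73 against controls 4 to 6.

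Abcg1, which passes cholesterol to mature high-density lipoprotein, separated the controls rather than the genotypes. Control replicates 1 to 3 read 9.52, 9.55 and 9.51, control replicates 4 to 6 read 9.89, 10.03 and 9.86, and the knockouts read 9.83, 9.90 and 9.83. The knockouts were above the first set and within or just below the second. The log2 difference was 0.13 (SE 0.12, 95% confidence interval -0.14 to 0.39) over all controls, 0.33 against controls 1 to 3 and -0.07 against controls 4 to 6, so its direction depended on which controls were used. Without control replicate 3 it was 0.08. The sets of controls did not overlap in Abcg1 alone of the 8 members, next to 16.2% of all genes, and in Cd36 and Plin2 they overlapped by only 9.5e-05 and 0.00081 log2 units.

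The members did not all vary together among the 6 controls, whose values were part of the comparison the members were picked from. Pearson's r across these 6 samples was 0.69 between Scd1 and Abca1, 0.73 between Scd1 and Lpl and 0.71 between Abca1 and Lpl, and control replicate 6 was the lowest of the controls in all 3 genes. It was 0.81 between Cd36 and Abcg1 and -0.45 between Abca1 and Abcg1. Fabp4 had r of 0.64 with Fabp5 and -0.44 with Abca1. These values rest on 6 points from single arrays and are a description.

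By a fixed likeness rule, the 2 genes with the highest Pearson's r over all 9 samples, among 1873 genes with an SD of at least 0.25, were named for each member. For Scd1 they were the RIKEN transcript E230029C05Rik (r = 0.99) and Ifitm1 (r = 0.97). For Fabp4 they were the sulfotransferase gene Sult1a1 (r = 0.95) and the lectin gene Clec4b1 (r = 0.93). For Abca1 they were the immunoglobulin segment Igkj1 (r = 0.96) and F630111L10Rik (r = 0.95). The likest genes were Slc7a11 (r = 0.92) and Clec10a (r = 0.91) for Fabp5, Trib1 (r = 0.95) and 4932438H23Rik (r = 0.94) for Plin2, and Tnf and Kctd21 (both r = 0.88) for Abcg1. For Lpl they were Btbd35f12 (r = 0.89) and 1810020O05Rik (r = 0.88), and for Cd36 they were Gm4963 (r = 0.96) and Olfr851 (r = 0.90). All these values share the group difference and the arrays.

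Markers of other splenic cells moved with the genotype in part and are given beside these differences. The 12 of 12 measured red pulp macrophage markers all had a higher mean in the knockout, though 0 of 12 passed 0.05 in limma after adjustment (9 had an unadjusted p under 0.05, as did 14.3% of all genes). Their mean log2 intensity was 8.32 to 9.46 in the controls and 9.23, 9.68 and 9.66 in the knockouts. Over 11 of 12 measured monocyte markers it was 8.32 to 8.61 in controls and 8.64 to 8.79 in knockouts. Each knockout was above every control in this list mean, and in 2 of the 11 single genes. Of the 11, 10 had a higher mean in the knockout, 0 passed 0.05 in limma and 5 had an unadjusted p under 0.05. Log2 differences were largest in Fcgr1 (0.80) and Cd14 (0.61). They were near 0 or lower in Cx3cr1 (0.03), Treml4 (0.02), Fn1 (0.02) and Vcan (-0.09). Over 9 of 10 measured B cell markers the mean log2 intensity was 7.35 to 7.53 in controls and 7.59, 7.24 and 8.13 in the knockouts, so that knockout replicate 3 stood apart. Of these, 0 of 9 passed and 2 had an unadjusted p under 0.05.

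Fabp4, Scd1 and Abca1 are given here for single samples beside the red pulp macrophage markers. Control replicate 2 had a higher level of these markers (9.46) than knockout replicate 1 (9.23). In that control Fabp4 was 4.10, the lowest of all samples, Scd1 was 6.49 and Abca1 was 6.25, while knockout replicate 1 had 4.82, 7.31 and 6.52. Control replicates 1 and 2 came nearest to the knockouts in monocyte markers, at 8.61 and 8.60 against 8.64 in knockout replicate 1. Control replicate 1 had the highest Scd1 (6.75) and Abca1 (6.41) of the controls, and a Fabp4 of 4.27. The values of control replicate 2 in these genes are those given above. Without knockout replicate 3, the sample with the high B cell markers, the difference was 0.75 for Scd1, 0.55 for Fabp4 and 0.44 for Abca1. Pparg and Nr1h3, described below, were lowest among the controls in replicate 3 (6.41 and 7.00) and highest in replicate 2 (6.84 and 7.63). The red pulp macrophage markers had their lowest (8.32) and highest (9.46) control values in the same samples. In knockout replicate 1, with these markers at 9.23, Pparg was 7.36 and Nr1h3 was 7.82. The part of monocytes, macrophages and B cells in the differences of the members, Pparg and Nr1h3 was not tested. Values of single arrays cannot decide it.

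Fat cells, endothelium and platelets express several of these genes, and their markers overlapped between the groups, with 0 passing 0.05 in limma and 0 at an unadjusted p under 0.05. Over 6 of 8 measured adipocyte markers the mean log2 intensity was 5.43 to 5.60 in controls and 5.42 to 5.47 in knockouts, and the adipocyte hormone gene Adipoq was below the array median on 9 of 9 arrays at 3.91 to 4.30. Over 10 endothelial markers the mean was 6.11 to 6.25 in controls and 6.12 to 6.18 in knockouts. Over 5 of 7 measured platelet markers it was 5.38 to 5.44 in controls and 5.32 to 5.43 in knockouts, with Pf4 below the array median on 9 of 9 arrays. Over 7 neutrophil markers it was 4.25 to 4.40 in controls and 4.25 to 4.45 in knockouts, and over 10 of 12 measured DC markers 10.99 to 11.12 in controls and 10.96 to 11.08 in knockouts.

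**Figure D2:**
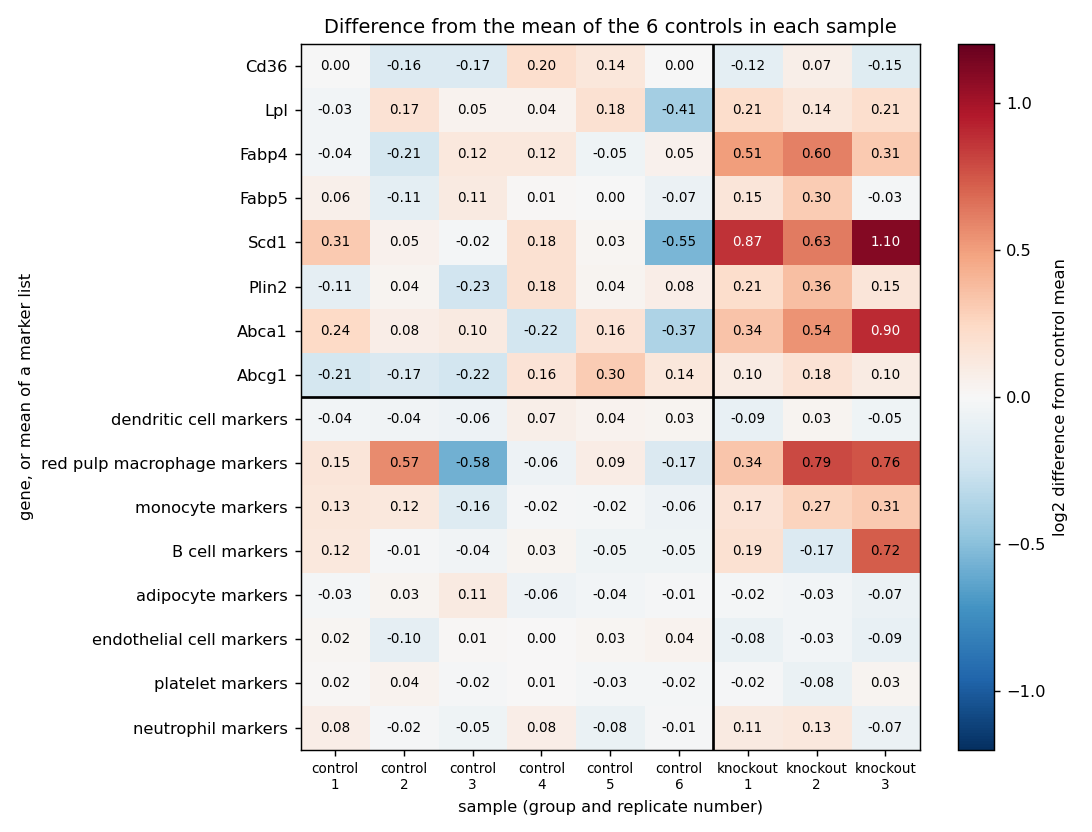
Difference of each sample from the mean of the 6 controls, in log2 units, for the 8 lipid genes (upper rows) and the mean of each cell type marker list (lower rows), with red for higher and blue for lower. Scd1, Abca1, Fabp4 and the monocyte row are above every control in all 3 knockout columns, while the red pulp macrophage row is also raised in control replicate 2 and the B cell row mainly in knockout replicate 3.

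Genes around the members were taken from 9 lists of lipid regulators, targets and enzymes, with 131 distinct genes of which 113 were measured. In these lists 2 of 113 genes rose in the knockout and 0 fell (limma, adjusted over all genes), next to 0.415% and 0.491% of all genes. At an unadjusted p under 0.05, 19 of the 113 were higher and 13 lower, next to 5.5% and 8.82% of all genes, and the unadjusted counts of single lists below are to be set against these shares. The median difference was 0.01 against -0.014 over all genes. The 2 were Pparg and Mylip.

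Pparg, the nuclear receptor that drives fat storage and lipid handling genes, rose. Its control values ran from 6.41 to 6.84 (median 6.81) and the knockouts read 7.36, 7.46 and 7.37. The knockouts were close together and well above every control. The mean was 6.72 ± 0.18 (SD, n = 6) in controls and 7.40 ± 0.05 (SD, n = 3) in knockouts, a log2 difference of 0.68 (SE 0.10, limma's adjusted p = 0.016) or 1.60-fold. Leaving out 1 sample kept it past 0.05 in 8 of 9 fits, the exception being the fit without knockout replicate 2 (adjusted p = 0.084). Pparg was among the results of these data known when the lists were drawn up.

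The other receptors of the family showed smaller differences that did not pass. Ppard differed by -0.04 (SE 0.08), Ppara by 0.12 (SE 0.10) and the shared partner Rxra by 0.06 (SE 0.07), with limma's adjusted p of 0.67 or more. In Ppard and Rxra the sign turned when 1 knockout sample was left out, and Ppara was 0.03 without knockout replicate 2 and 0.18 without control replicate 3. Against controls 1 to 3 and controls 4 to 6 in turn, Ppara differed by 0.03 and 0.21, Ppard by -0.07 and -0.02 and Rxra by 0.08 and 0.03. The gene for LXRα, Nr1h3, had controls from 7.00 to 7.63 (median 7.45) and knockouts of 7.82, 7.88 and 7.98. Each knockout was above every control, but the difference of 0.50 (SE 0.12) did not pass (adjusted p = 0.094). The gene for LXRβ, Nr1h2, was not analysed here. The sterol-sensing factors had differences of -0.21 (SE 0.07, adjusted p = 0.21) for Srebf1 and -0.07 (SE 0.06, adjusted p = 0.64) for Srebf2. Srebf1 was -0.14 without knockout replicate 2. Srebf2 was -0.02 without knockout replicate 1, -0.05 against controls 1 to 3 and -0.10 against controls 4 to 6.

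**Figure D3:**
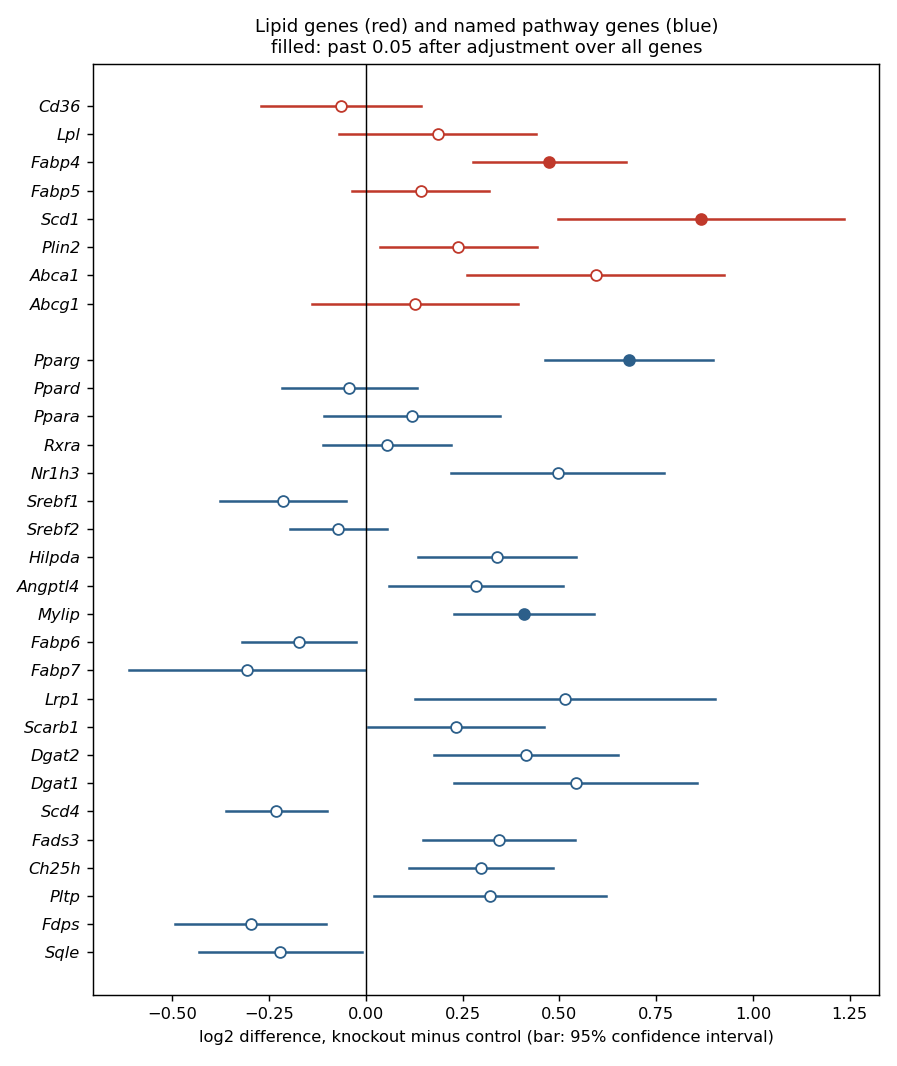
Log2 difference, knockout minus control, with its 95% confidence interval for the 8 lipid genes (red) and 22 named genes of the pathway lists (blue), filled where the gene passed 0.05 after adjustment over all genes. The intervals of Scd1, Abca1, Fabp4 and Plin2 lie above 0, and Pparg and Mylip are the filled blue points.

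Among 13 measured LXR targets other than the members 1 rose and 0 fell. At limma's unadjusted p under 0.05, 5 were higher and 2 lower. Mylip, a ubiquitin ligase that marks the LDL receptor for degradation, had controls from 9.07 to 9.26 (median 9.19) and knockouts of 9.77, 9.61 and 9.40. All knockouts were above all controls. The difference was 0.41 (SE 0.08, limma's adjusted p = 0.049) or 1.33-fold, and it stayed past 0.05 in 1 of the 9 fits that left out a sample, the fit without knockout replicate 3. The list median was 0.08. Pltp, the phospholipid transfer protein, differed by 0.32 (SE 0.14, adjusted p = 0.31) and by 0.15 without knockout replicate 3. Of 16 efflux genes 0 passed, with a median of 0.07 and 4 higher at an unadjusted p under 0.05. The oxysterol-making enzyme gene Ch25h differed by 0.30 (SE 0.08, adjusted p = 0.13) on its brightest probe and by -0.03 (SE 0.05) on its other probe, and the mean of both gave 0.14.

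PPAR targets other than the members had a median near that of all genes. Of 16 measured, 0 passed 0.05 (3 were higher at an unadjusted p under 0.05), 8 had a higher and 8 a lower mean, and the median was 0.00112. The largest by p were the droplet protein gene Hilpda (0.34, SE 0.09, limma's adjusted p = 0.12) and the lipase inhibitor gene Angptl4 (0.28, SE 0.10, adjusted p = 0.23). Angptl4 was 0.17 without knockout replicate 2. Of 8 other fatty acid binding protein genes 0 passed and 2 were lower at an unadjusted p under 0.05, with a median of 0.01. In this family Fabp6 differed by -0.17 (SE 0.07, adjusted p = 0.27) and Fabp7 by -0.31 (SE 0.14, adjusted p = 0.34), both at low signal. Fabp6 was -0.10 without knockout replicate 1, and Fabp7 was -0.43 against controls 1 to 3 and -0.19 against controls 4 to 6.

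Storage and uptake genes had medians just above 0 and no gene past the threshold. Of 16 genes of storage and lipolysis, the triglyceride synthases Dgat1 (0.54, SE 0.14, limma's adjusted p = 0.11) and Dgat2 (0.41, SE 0.11, adjusted p = 0.10) had the smallest p, and the list median was 0.04. Both had knockout replicate 3 near the top of the controls, at 8.35 against a highest control of 8.36 for Dgat1 and at 6.94 against 6.95 for Dgat2. Without that sample, Dgat1, Dgat2, Hilpda and Ch25h passed 0.05 beside Pparg and Mylip, 6 genes in all, and without knockout replicate 2 the count was 0. Of 14 uptake genes, with a median of 0.07, the endocytic receptor Lrp1 differed by 0.51 (SE 0.18, adjusted p = 0.21) and the lipoprotein receptor Scarb1 by 0.23 (SE 0.10, adjusted p = 0.34). Lrp1 was 0.33 without knockout replicate 3, and Scarb1 was 0.36 against controls 1 to 3 and 0.10 against controls 4 to 6. At an unadjusted p under 0.05, 4 storage genes were higher and 1 lower, and 2 uptake genes were higher.

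Genes of lipid synthesis mostly had lower means in the knockout, and none passed in limma. Of 14 genes of desaturation, elongation and synthesis 0 passed (3 were higher and 6 lower at an unadjusted p under 0.05, next to 5.5% and 8.82% of all genes), 10 had a lower and 4 a higher mean in the knockout, and the median was -0.06. The smallest p were those of Scd4, given above, and Fads3 (0.34, SE 0.09, limma's adjusted p = 0.10), a desaturase-like gene with a higher mean. Fads3 was 0.23 without knockout replicate 1. Of 14 genes of cholesterol synthesis 0 passed, 2 were lower at an unadjusted p under 0.05, 11 had a lower mean and the median was -0.12, with Fdps at -0.30 (SE 0.09, adjusted p = 0.15) and Sqle at -0.22 (SE 0.10, adjusted p = 0.32). Sqle was -0.13 without knockout replicate 3, and with array weights Fdps was -0.19 and Sqle -0.13. Over all genes 12196 of 22180 had a lower mean in the knockout.

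**Figure D4:**
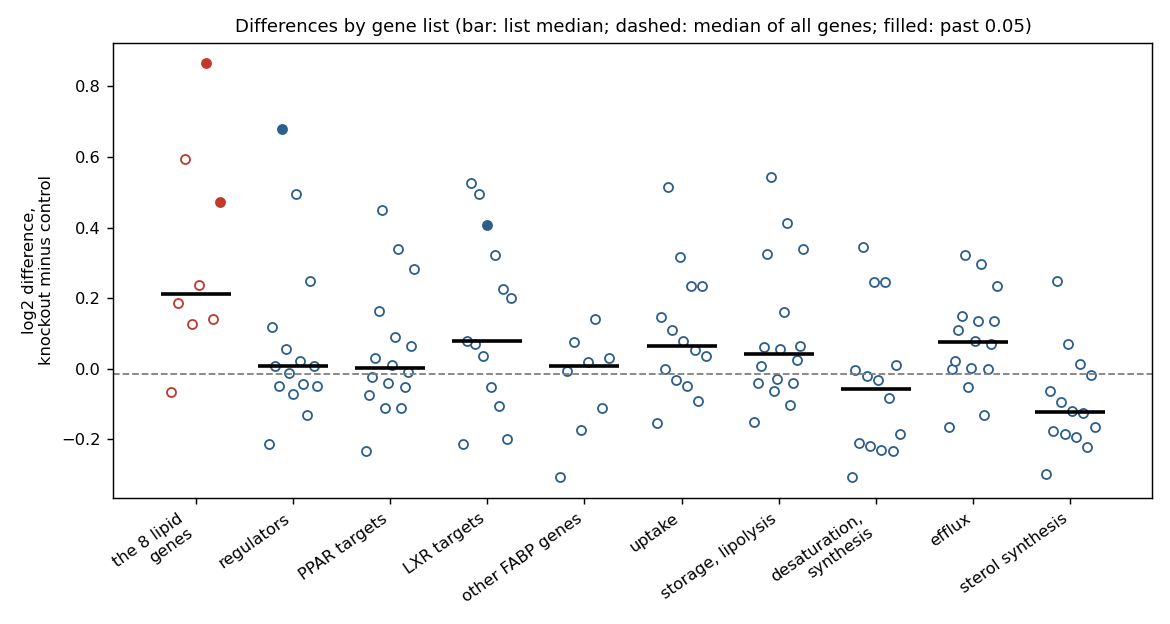
Log2 difference, knockout minus control, of every measured gene in the 8 lipid genes (red) and in each of 9 pathway lists (blue, some genes in several lists), with list medians as bars, the median of all genes as a dashed line and genes past 0.05 filled. The medians of the pathway lists lie between -0.12 and 0.08, and that of the 8 lipid genes, which were chosen from this comparison, at 0.21.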

How the data were processed

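Total RNA of sorted DCs was labelled with biotin and hybridised to 1 single-colour array per sample. The deposited values are log2 intensities per transcript-cluster probe, which the authors produced by RMA, as the submitters' processing notes record (version, settings and genome build not given in the sources used here), which quantile-normalizes the arrays and would remove a shift shared by most genes. Their range is what sets the log base. Of 41801 rows, 34468 probes had values in all samples, and 23521 of them had exactly 1 gene symbol in the platform annotation (1814 had several, 9133 none), giving 22180 genes, each by its brightest probe over all samples, with no signal filter.

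The 3 knockouts were set against the 6 controls in limma 3.58.1, run in R 4.3.3 (lmFit and eBayes, two-sided, no covariate), with Benjamini-Hochberg adjustment over all genes at 0.05. Differences are knockout minus control on the log2 scale, with limma's SE and interval. The fit was tested on simulated data. The number of arrays limits the precision.

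The members and gene lists were chosen with earlier results of these data known. Named genes were all members, Cebpb, 8 regulators (of which Nr1h2 had no probe of its own here), up to 6 genes past 0.05 per pathway list or else the 2 with the smallest p, and the 2 genes most like each member. Neighbours named beside Fabp4 and Scd1 come from the fixed lists and the RefSeq gene order (GRCm38.p6) and were chosen for position after their values were seen. Alternatives were 2 rescalings, other variance models and weights, the replicate number as a block, each sample left out, a signal filter, other probe rules and, added after seeing the data, each set of 3 controls. Tables and figures used Python 3.11.15, pandas 2.3.3, numpy 2.4.6 and matplotlib 3.10.9.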

Additional observations from a re-analysis of the deposited data

Results flagged for a closer look

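In Lpl, control replicate 6 read 5.42, apart from the other 5 controls, which read 5.80 to 6.01. In Ppara, control replicate 3 read 4.94 on a dim probe whose other controls read 4.49 to 4.62. Relative to the range of the controls, both gaps are wider than Dixon's 95% critical value, in 31 genes checked, and chance passes that limit in about 1 in 20 groups.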

How the results depend on the processing

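Of the 31 genes checked, the sign turned in 4. Cd36 turned to 0.046 against controls 1 to 3 and with the replicate block. These are the same estimate, since numbers 4 to 6 occur only in controls. Abcg1 turned to -0.074 against controls 4 to 6. The other two turned when 1 sample was left out: Ppard ranged from -0.078 to 0.0066 (above 0 without knockout replicate 3) and Rxra from -0.017 to 0.093 (below 0 without knockout replicate 2). The number of members past 0.05, 2 in the reported fit, was 1 with each array centred on its median, 1 after a second quantile normalization, and 0 with the replicate block, with controls 1 to 3 alone or with controls 4 to 6 alone, and 0 to 1 when 1 sample was left out. The number of pathway genes past 0.05, also 2, was 1 with centring, 8 with array weights, 4 among brighter genes alone, 1 counted over all probes, 0 with the replicate block, 0 with either set of 3 controls, and 0 to 6 when 1 sample was left out. Over all genes the count of 201 became 125 with centring, 652 with array weights, 537 of 11090 brighter genes, 2 with the replicate block, 3 against controls 1 to 3, 20 against controls 4 to 6, and 33 to 332 when 1 sample was left out. The sets with 3 controls and the block leave fewer samples or degrees of freedom. The cause of these and of the other shifts was not tested. Same-numbered samples did not deviate together (r = -0.14, -0.10 and 0.05 for numbers 1 to 3), so the numbers were not taken as pairs. Fabp4 and Lpl have no value among brighter genes. There the 2 members past 0.05 were Scd1 and Abca1, and Abca1 did not pass in the reported fit.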
